A study of Rattus norvegicus with 3 samples.

Results

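The 37 genes described here encode enzymes that make, oxidise or hydrolyse acyl-CoA, and they were read in hippocampal RNA of healthy wild-type rats gavaged for 28 days with Q808, a compound with a code name only. There was 1 group of 3 samples, called replicates 1, 2 and 3 after their titles. Untreated rats were not analysed here, and no value below measures an effect of Q808. The labels used here give no strain, age, sex or dose and do not tie each sample to its own animal, which leaves part of any spread possibly technical. The count columns carry the prefix Con_Q, with no explanation in the sources used here, and whether it denotes control or treated tissue cannot be told from these files.

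The members were chosen by name, as rat genes of the acyl-CoA dehydrogenase (Acad), synthetase (Acs, with Aacs) and thioesterase (Acot) families together with the carboxylases, thiolases and ATP citrate lyase next to them. All 37 had a row among the 18560 genes of replicate 2. They comprised 9 dehydrogenases, 12 synthetases, 10 thioesterases and 6 other enzymes. Replicate 2 held 15417009 counts in all. The files of replicates 3 and 1 end after 307 and 12 genes, the start of the same alphabetical order, so their library sizes are unknown. All 37 members fell within the part of replicate 3 that is present, and 1 member, Aacs, within that of replicate 1.

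A fatty acid enters metabolism only after a synthetase has joined it to coenzyme A. The acyl-CoA can then be built into membrane lipid, elongated, or carried into mitochondria, where a dehydrogenase opens each round of beta-oxidation and a thiolase closes it. Thioesterases split acyl-CoA back into the free acid and coenzyme A. Brain takes most of its energy from glucose and oxidises fatty acids mainly in astrocytes, while neurons and oligodendrocytes use activated fatty acids for membranes and myelin.

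The tissue label was checked in replicate 2 against marker lists. All 7 neuron markers, all 6 astrocyte markers and all 6 oligodendrocyte markers had at least 10 counts, with medians of 574, 714 and 509 counts per 1000000 counts of the library (CPM). The 6 hippocampal field genes ranged from 3.44 to 276 CPM. None of 5 liver and adipose markers reached 10 counts, and their summed level was 1.23 CPM. Choroid plexus markers ranged from 1.95 to 176 CPM, endothelial markers from 12.8 to 84.1 CPM and microglia markers from 10.6 to 130 CPM. All 3 blood markers had at least 10 counts, with Hba-a1 at 127 CPM, Hbb at 67.3 CPM and Alas2 at 1.43 CPM. None of these markers lies in the part of replicate 3 that is present, so they could not be compared between libraries. The tissue is a mixture of cells, and fewer cells of a type and less RNA per cell cannot be told apart.

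All 37 members were read in replicate 2, where each had at least 12 counts, while 77.02% of all genes in the table reached 10. The members together took 32956 counts, or 0.214% of the library. No transcript lengths were available for these files, so CPM is a yield of reads that is not corrected for length, and different genes are given side by side without ranking their transcripts. The median over members was 19.4 CPM, and that over all genes with at least 10 counts was 25.2 CPM. Synthetases supplied 51.1% of the member counts in replicate 2 and 52.1% in replicate 3. The other enzymes supplied 19.8% and 20.5%, thioesterases 18.5% and 15.6%, and dehydrogenases 10.7% and 11.8%, with replicate 2 given before replicate 3. The thioesterase share was the one that differed most between the libraries.

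**Figure D1:**
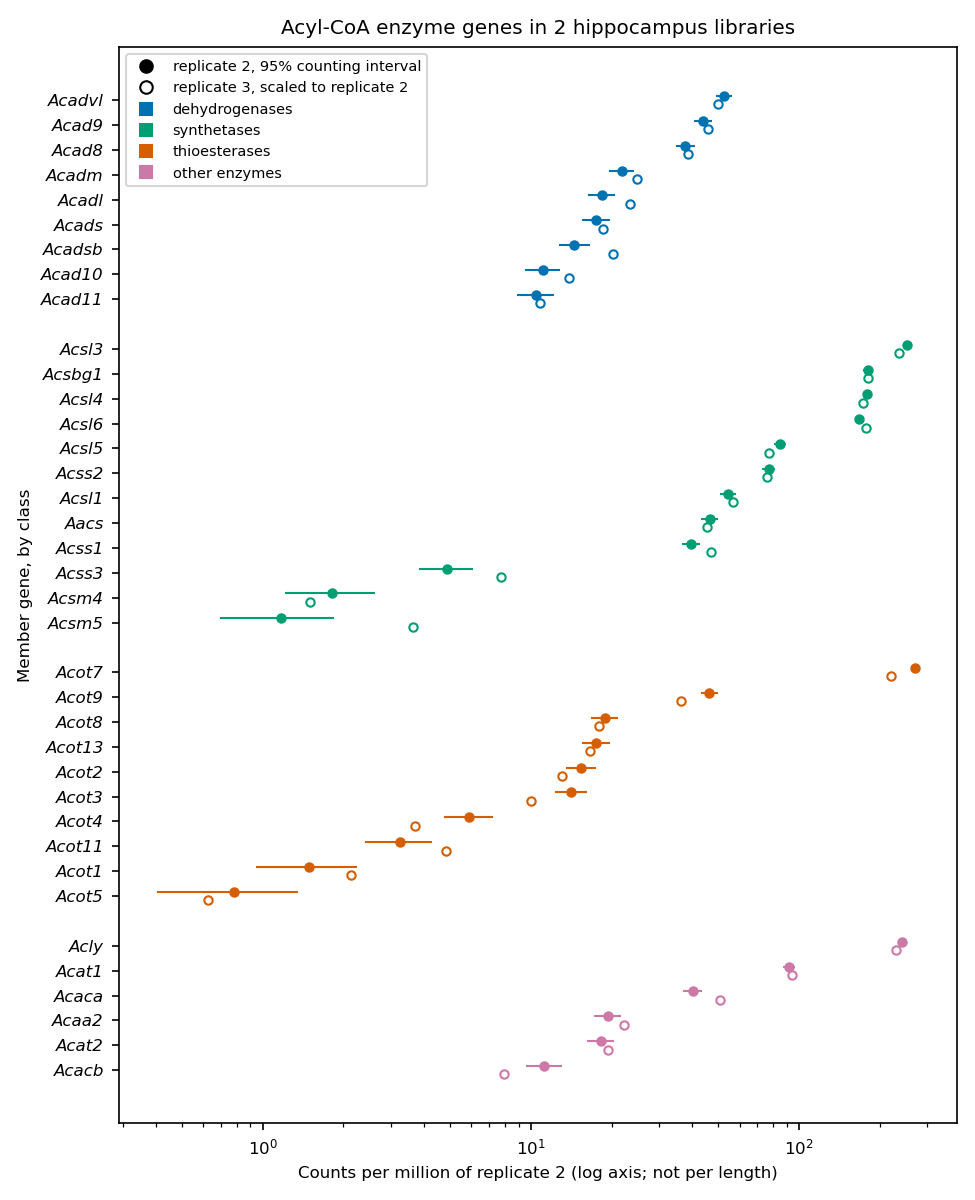
CPM of replicate 2 for each of the 37 members, on a log axis and not per length, with filled points for replicate 2 (95% exact counting interval) and open points for replicate 3 scaled to replicate 2. Acot7 (272 CPM in replicate 2, 220.1 in replicate 3), Acsl3 (253 and 236) and Acly (242 and 231) had the highest read yields, and Acot5 (0.778 and 0.627) the lowest.

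**Figure D2:**
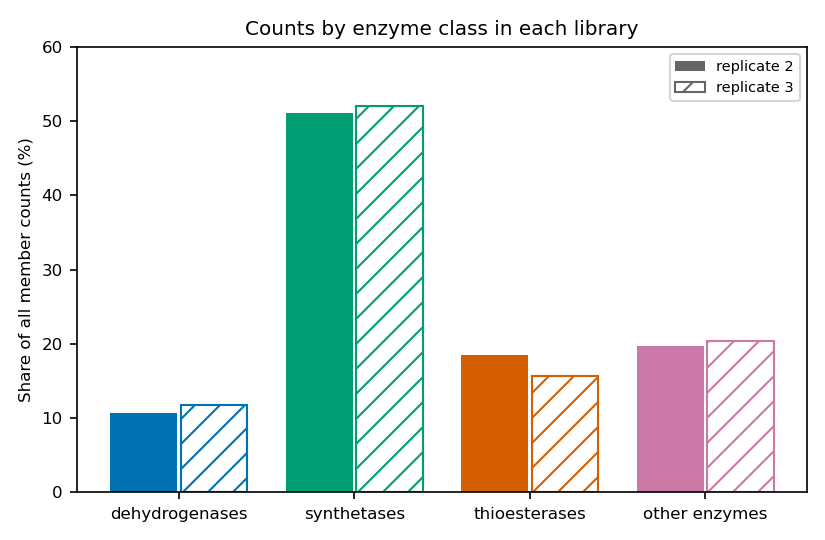
Share of all member counts, in percent, for the 4 enzyme classes in replicate 2 (solid bars) and replicate 3 (hatched bars). Thioesterases held 18.5% in replicate 2 and 15.6% in replicate 3, and synthetases held 51.1% and 52.1%.

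Replicates 2 and 3 were compared gene by gene after scaling, over 243 genes that reached 10 counts in both files. All 37 members were among these. Ratios are those of replicate 2 over replicate 3, with 95% exact counting intervals, and p-values are from a two-sided exact binomial test adjusted by Benjamini-Hochberg over all 243 genes. This test compares 2 libraries of 1 group. It covers counting error only, and a small adjusted p shows a difference between these libraries and none between conditions. Of all genes compared, 33.7% passed it at an adjusted p under 0.05, with 16.9% higher in replicate 2 and 16.9% higher in replicate 3. Of the members, 13 of 37 passed, 7 higher in replicate 2 and 6 higher in replicate 3. That share, 35.1%, was close to the share of all genes. Past 1.5-fold lay 3 of the 37 members, against 10.3% of all genes compared.

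The synthetases included the members with the closest counts in both libraries and the one that differed most. Those of long-chain fatty acids were read at similar levels. Acsl3, an enzyme of the endoplasmic reticulum and lipid droplets, had 3897 counts in replicate 2 and 3767 in replicate 3, which scaled to 3644. Its ratio was 1.07 (1.02 to 1.12; adjusted p = 0.0128, exact binomial test). The difference passed the counting test but amounted to 4.74% of the mean as a coefficient of variation (n = 2). Acsl5, which is found on mitochondria and the endoplasmic reticulum, had 1311 and 1229 counts in replicates 2 and 3, a ratio of 1.10 (1.02 to 1.19; adjusted p = 0.0432, exact binomial test). It no longer passed when counts were scaled by the total of the shared genes (adjusted p = 0.0754) or when no count filter was applied (adjusted p = 0.0668, exact binomial tests).

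The other long-chain synthetases did not pass the test. Acsl4, which prefers arachidonic acid and is known from ferroptosis, had 2776 counts in replicate 2 and 2765 in replicate 3 (ratio 1.04, 0.984 to 1.09). Acsl6, which in mice enriches neuronal membranes in docosahexaenoic acid, had 2590 and 2826 counts (ratio 0.947, 0.898 to 0.9996; adjusted p = 0.114, exact binomial test). Acsl1, the main form of heart and fat tissue, had 840 and 902 counts (ratio 0.963, 0.875 to 1.06). All 5 Acsl genes lay within 1.2-fold of equality. Acsbg1, the bubblegum synthetase known from brain and steroid-producing tissue, had 2777 counts in replicate 2 and 2872 in replicate 3, which scaled to 2778. Of the 243 genes, 242 had a larger log2 ratio in absolute terms than Acsbg1.

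Synthetases of short chains were uneven. Acss2, which turns acetate into acetyl-CoA in cytosol and nucleus, had 1188 counts in replicate 2 and 1213 in replicate 3 (ratio 1.01, 0.934 to 1.10). Acss1, the mitochondrial acetate enzyme, had 611 and 751 counts and was higher in replicate 3 (ratio 0.841, 0.755 to 0.937; adjusted p = 0.00669, exact binomial test). Acss3, a mitochondrial synthetase that acts on propionate, had 75 and 123 counts and was also higher in replicate 3 (ratio 0.630, 0.467 to 0.847; adjusted p = 0.00736, exact binomial test). Within each library, where scaling cancels, Acss1 had 0.514 times the counts of Acss2 in replicate 2 and 0.619 times in replicate 3, not corrected for length. Both mitochondrial enzymes thus had fewer scaled counts in replicate 2, and Acss2 did not pass the test.

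The medium-chain synthetases, best known from liver and kidney mitochondria, had few counts. Acsm5 had 18 counts in replicate 2 and 58 in replicate 3, which scaled to 56.1. Its ratio of 0.321 (0.178 to 0.552; adjusted p = 6.41e-05, exact binomial test) was the largest departure among the members, and 3 of the 243 genes departed further. Acsm4 had 28 and 24 counts (ratio 1.21, 0.674 to 2.17), an interval that spans both directions. Acsm3, a relative that is no member, had 6 counts in replicate 2 and 46 in replicate 3, and Acsm1 had 0 and 1. With 0 counts, replicate 2 allows up to 0.195 CPM of Acsm1. Among the 243 genes compared, the 3 that departed further than Acsm5 included Ace, the angiotensin-converting enzyme gene (101 counts in replicate 2, 877 in replicate 3). The others were Abca4, a retinal lipid transporter gene (22 and 134), and Adamtsl4 (42 and 190). The part of these 3 genes in the Acsm5 difference was not tested.

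Aacs, the cytosolic acetoacetyl-CoA synthetase that feeds ketone carbon into lipid synthesis, was the only member held by all 3 files. It had 792 counts in replicate 1, 716 in replicate 2 and 721 in replicate 3. Scaled over the 7 genes that reached 10 counts in every file, these came to 737, 762 and 732. Aacs is itself 1 of these 7 genes, and another, Aak1, had 6890 counts in replicate 2. The mean of Aacs was 743 ± 16.3 (SD, n = 3), a coefficient of variation of 2.19%, below the 3.67% that counting alone gives for counts of this size. Scaled on so few genes, Aacs among them, this spread does not show that Aacs is stable. A chi-square test of the counts of these 7 genes did not separate replicate 1 from replicate 3, at 1.37 for each degree of freedom (p = 0.222, where sampling noise alone gives about 1). The same value was 3.48 for replicates 2 and 1 and 4.42 for replicates 2 and 3. With replicates 1 and 3 counted as 1 sample, the mean was 748 ± 19.7 (SD, n = 2). So few genes do not show whether replicates 1 and 3 are separate libraries.

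Thioesterases were mostly higher in replicate 2. Of the 10, 8 had a ratio above 1, against 116 of the 243 genes compared. The test was passed by 4, all of them higher in replicate 2, against 16.9% of all genes compared. None was higher in replicate 3 by the test, also against 16.9%. Their median ratio was 1.21, beside 0.991 over all 243 genes. Acot7, the cytosolic enzyme abundant in neurons of mice, had 4188 counts in replicate 2 and 3507 in replicate 3, which scaled to 3393. Its ratio was 1.23 (1.18 to 1.29; adjusted p = 9.01e-19, exact binomial test). Acot7 supplied 68.7% of the thioesterase counts in replicate 2 and 67.7% in replicate 3. Without it the class still summed to 1907 and 1677 counts, a ratio of 1.18 (1.10 to 1.26).

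Acot9, a mitochondrial thioesterase, had 714 counts in replicate 2 and 578 in replicate 3 (ratio 1.28, 1.14 to 1.43; adjusted p = 8.77e-05, exact binomial test). Acot3 and Acot4 are peroxisomal in mice. Acot3 had 218 and 160 counts (ratio 1.41, 1.14 to 1.74; adjusted p = 0.00475, exact binomial test). Acot4 had 91 and 59 counts (ratio 1.59, 1.14 to 2.25; adjusted p = 0.0189, exact binomial test). Acot4 had the highest ratio of any member, and 17 of the 243 genes departed further from equality.

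The remaining thioesterases did not pass the test. Acot2, the mitochondrial long-chain form, had 238 counts in replicate 2 and 209 in replicate 3 (ratio 1.18, 0.973 to 1.42). Acot8, a peroxisomal form, had 291 and 285, and Acot13, a small mitochondria-associated form, had 270 and 265. Their ratios were 1.06 (0.893 to 1.25) and 1.05 (0.886 to 1.25). Acot11, known from brown fat, had 50 and 77 counts (ratio 0.671, 0.461 to 0.971; adjusted p = 0.0869, exact binomial test). The cytosolic Acot1 had 23 and 34 counts (ratio 0.699, 0.393 to 1.22), and Acot5 had 12 and 10 (ratio 1.24, 0.491 to 3.21). At these counts a difference of the size seen for Acot4 was not detectable for Acot5.

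Acot1 to Acot5 are close paralogs that lie next to each other on chromosome 6 in the RefSeq annotation, and the sources used here do not say how the authors' counting divided reads among them. Their separate values are uncertain for that reason. Summed, they had 582 counts in replicate 2 and 472 in replicate 3, a ratio of 1.27 (1.13 to 1.44). The sum therefore lay on the same side as Acot3 and Acot4, while Acot1 alone had a ratio below 1.

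Promoters of the thioesterases that passed the test are shown because these genes differed between the libraries in 1 direction, and that of Acadsb because it passed in the other. Each is the 250 bases before the start used in RefSeq's table (GRCr8), and other transcripts of a gene may start elsewhere. They are Acot3 (chr6:109413447-109413696, plus strand), Acot4 (chr6:109399604-109399853, plus strand), Acot7 (chr5:167969152-167969401, plus strand), Acot9 (chrX:43973206-43973455, minus strand) and Acadsb (chr1:195618966-195619215, plus strand). The sources used here name no build for the counts. Capitals mark the GC box GGGCGG and the CCAAT box on either strand.
Acot3: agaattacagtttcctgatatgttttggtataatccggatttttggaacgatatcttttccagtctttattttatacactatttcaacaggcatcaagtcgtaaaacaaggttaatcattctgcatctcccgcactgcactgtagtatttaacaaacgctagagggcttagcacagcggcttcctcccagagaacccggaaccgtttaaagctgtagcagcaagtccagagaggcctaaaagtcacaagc
Acot4: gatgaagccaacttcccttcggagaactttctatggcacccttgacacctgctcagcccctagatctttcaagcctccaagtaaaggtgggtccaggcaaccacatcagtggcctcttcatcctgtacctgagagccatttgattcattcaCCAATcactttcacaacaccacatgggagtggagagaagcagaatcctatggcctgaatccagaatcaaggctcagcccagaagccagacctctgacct
Acot7: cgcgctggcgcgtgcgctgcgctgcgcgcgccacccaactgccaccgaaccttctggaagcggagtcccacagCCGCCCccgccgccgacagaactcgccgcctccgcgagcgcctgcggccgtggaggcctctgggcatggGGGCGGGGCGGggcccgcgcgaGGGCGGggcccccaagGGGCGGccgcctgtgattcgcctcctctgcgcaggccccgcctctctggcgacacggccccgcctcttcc
Acot9: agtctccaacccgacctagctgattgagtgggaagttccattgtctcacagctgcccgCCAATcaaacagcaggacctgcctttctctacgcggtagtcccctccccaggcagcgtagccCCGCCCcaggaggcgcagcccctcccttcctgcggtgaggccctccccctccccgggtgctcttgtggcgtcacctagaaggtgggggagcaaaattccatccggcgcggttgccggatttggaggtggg
Acadsb: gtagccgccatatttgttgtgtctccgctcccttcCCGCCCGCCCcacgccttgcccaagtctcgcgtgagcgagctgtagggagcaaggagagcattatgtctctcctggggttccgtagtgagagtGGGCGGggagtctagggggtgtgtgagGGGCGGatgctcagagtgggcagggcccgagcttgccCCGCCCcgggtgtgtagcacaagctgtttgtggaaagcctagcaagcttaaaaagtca

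The GC box was found in 18 of the 32 members with an entry in that table and in 32.4% of all 27457 promoters of this length. The median GC content was 58.6% in the windows of these 32 members and 52.0% over all promoters. Whether the GC box is more frequent than base composition alone gives was not tested. The CCAAT box was found in 13 of the 32 members and in 34.3% of all promoters. Other motifs searched on both strands were the nuclear receptor motif AGGTCA (7 members, 13.7% of all promoters), the TATA box TATAAA (3 members, 13.1%) and the CRE motif TGACG (8 members, 19.0%). No motif contains another, and overlapping matches of the GC box were each counted. No entry was matched for Acaa2, Acaca, Acadl, Acss1 and Acss3. Among thioesterases, none of the 5 paralogs Acot1 to Acot5 held a GC box, while Acot7, Acot8, Acot9, Acot11 and Acot13 all did. The GC content of these windows ran from 42.0% to 50.8% in the paralogs and from 58.8% to 78.4% in the other 5. Genes of both kinds were among those higher in replicate 2, with Acot3 and Acot4 lacking the GC box and Acot7 and Acot9 holding 5 and 1. Of the members higher in replicate 3 by the test, Acadsb also held 5 and Acsm5 held 0, and the others had no entry. A match is a run of letters and not a shown binding site.

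Dehydrogenases lay mostly on the other side. Of the 9, 8 had a ratio below 1, against 127 of the 243 genes compared, and 6 lay within 1.2-fold of equality. Their median ratio was 0.940, beside 0.991 over all genes compared. By the test, 2 were higher in replicate 3 and none in replicate 2, against 16.9% of all genes in each direction. The share that passed, 22.2%, was below the 33.7% of all genes compared. Acadsb, which acts on the branched chain left from isoleucine, had 224 counts in replicate 2 and 323 in replicate 3, which scaled to 312. Its ratio was 0.717 (0.602 to 0.853; adjusted p = 0.000773, exact binomial test). Acadl, the long-chain dehydrogenase, had 283 and 374 counts (ratio 0.782, 0.668 to 0.915; adjusted p = 0.00762, exact binomial test).

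The other 7 dehydrogenases did not pass. Acadm, the medium-chain enzyme, had 336 counts in replicate 2 and 397 in replicate 3 (ratio 0.875, 0.754 to 1.01). The short-chain gene Acads had 270 and 297 (ratio 0.940, 0.794 to 1.11). Acadvl, the very-long-chain enzyme of the inner mitochondrial membrane, had 813 and 793 counts and was the only member of the class with a ratio above 1 (1.06, 0.960 to 1.17). The intervals of Acadm, Acads and Acadvl all spanned 1.

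Acad9, better known as an assembly factor of respiratory complex I, had 677 counts in replicate 2 and 729 in replicate 3 (ratio 0.960, 0.863 to 1.07). Acad8, which acts in valine breakdown, had 581 and 616 (ratio 0.975, 0.869 to 1.09). Acad10 and Acad11, which take hydroxylated fatty acids, had 171 and 161 counts in replicate 2, against 221 and 172 in replicate 3. Their ratios were 0.800 (0.651 to 0.981; adjusted p = 0.0804, exact binomial test) and 0.968 (0.776 to 1.21). The interval of Acad10 lay below 1 before adjustment over all genes.

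**Figure D3:**
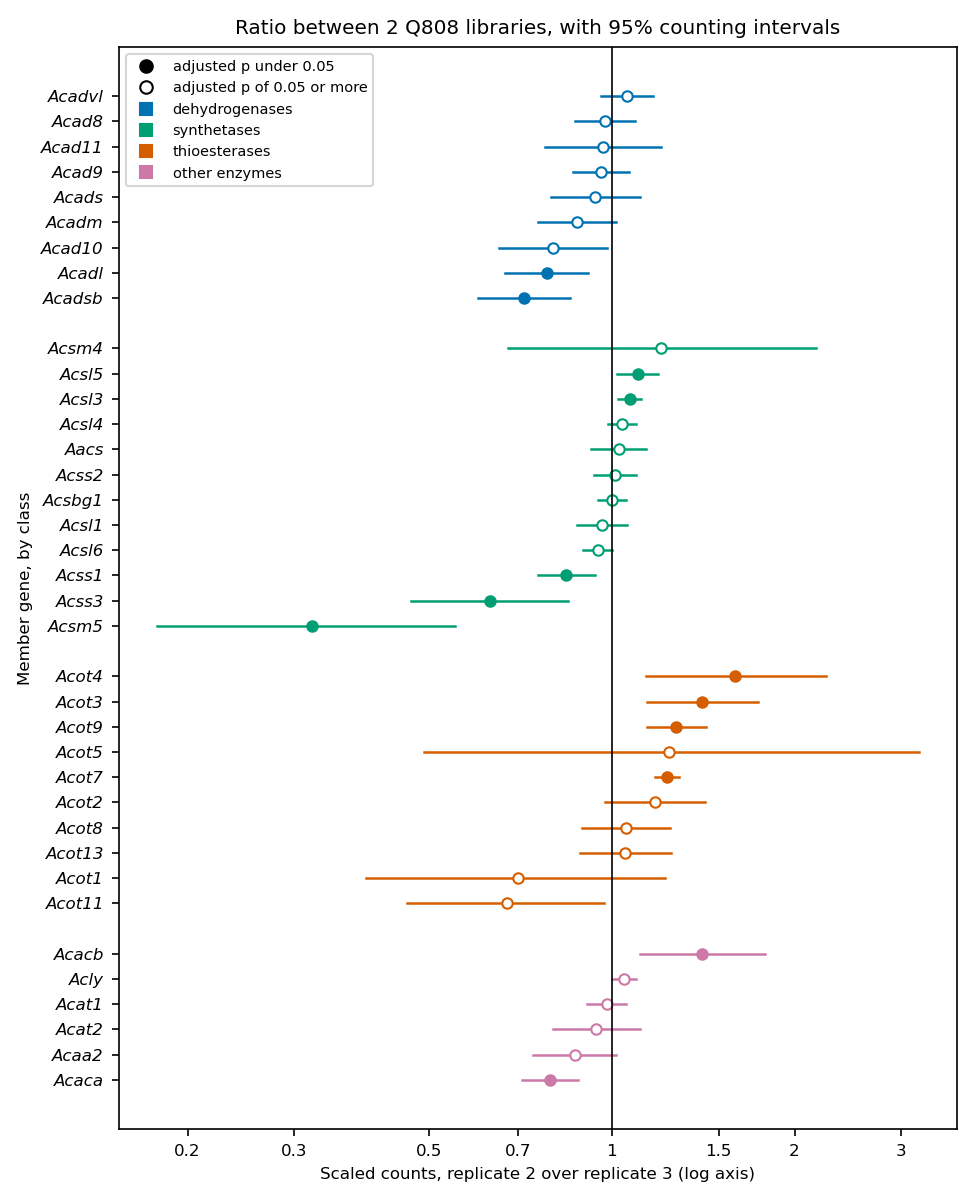
Ratio of scaled counts, replicate 2 over replicate 3, for each member on a log axis, with 95% exact counting intervals, filled where the adjusted p of the exact binomial test was under 0.05. Of the thioesterases 8 of 10 lie above 1, against 116 of all 243 genes compared. Of the dehydrogenases 8 of 9 lie below 1, against 127 of all 243. Acsm5 stands farthest out at 0.321.

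The direction of each class is relative to the scaling, but the ratio of one class to another within a library is not. Thioesterases together had 1.73 times the counts of dehydrogenases in replicate 2 and 1.32 times in replicate 3. The ratio of these values was 1.31 (1.24 to 1.39, counting error only), and it was 1.27 (1.17 to 1.38) without Acot7. This comparison was chosen after the counts had been seen, and with 1 library on each side it has no replicate check. Genes of a class are not replicates, and whether the classes differ beyond the spread between samples was not tested.

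The remaining enzymes link acetyl-CoA to synthesis and breakdown. Acaca makes malonyl-CoA in the cytosol for fatty acid synthesis, and Acacb makes it at the mitochondrial surface, where it restrains fatty acid import. Acaca had 619 counts in replicate 2 and 810 in replicate 3 (ratio 0.790, 0.710 to 0.878; adjusted p = 7.18e-05, exact binomial test). Acacb had 173 and 127 counts (ratio 1.41, 1.11 to 1.78; adjusted p = 0.0140, exact binomial test). The carboxylases thus stood in opposite directions. Acaca had 3.58 times the counts of Acacb in replicate 2 and 6.38 times in replicate 3, and the ratio of these values was 0.561 (0.432 to 0.727, counting error only).

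Acly, which makes cytosolic acetyl-CoA from citrate, had 3726 counts in replicate 2 and 3679 in replicate 3, a ratio of 1.05 with an adjusted p of 0.117 in the exact binomial test. The thiolase Acat1, which works in mitochondrial ketone body and isoleucine metabolism, had 1420 and 1496 counts (ratio 0.981, 0.912 to 1.06). Acat2, the cytosolic thiolase that starts cholesterol synthesis, had 281 and 308 (ratio 0.943, 0.799 to 1.11). Acaa2, the thiolase that closes a round of mitochondrial beta-oxidation, had 299 and 356 (ratio 0.868, 0.742 to 1.02). None of these 4 passed the test.

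**Figure D4:**
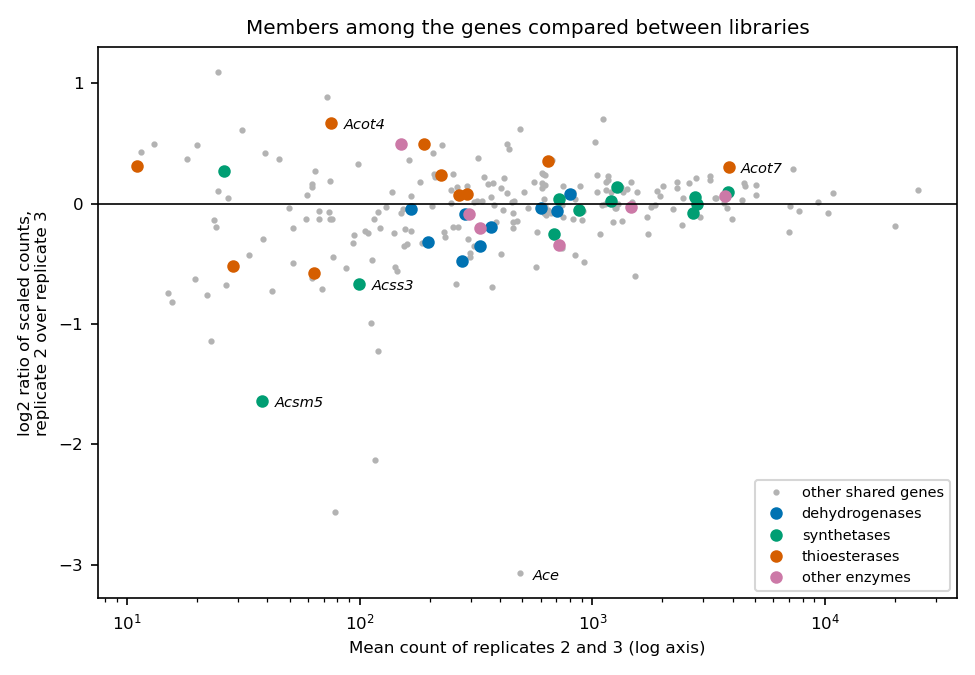
Log2 ratio of scaled counts, replicate 2 over replicate 3, against the mean count (log axis) for the 243 genes compared, with members coloured by class. Among the members Acot4 lies highest at 0.67 and Acsm5 lowest at -1.64, and 3 of the 243 genes depart further than Acsm5. Ace, no member, lies at -3.07.

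The spread of the members between replicates 2 and 3 was summarised by edgeR's common biological coefficient of variation. It was 0.116 over the members and 0.170 over all 243 genes, and the value over all genes was 0.135 without Ace. By class it was 0.0688 for synthetases, 0.0972 for dehydrogenases, 0.102 for the other enzymes and 0.160 for thioesterases. The median absolute log2 ratio was 0.19 over members and 0.17 over all genes. Among genes with at least 100 counts in both libraries it was 0.09 for 30 members and 0.14 for all 186 genes. Of these 30 members 8 departed by more than 1.2-fold, or 26.7%, against 20.4% of all 186. Among them were 0 of 9 synthetases, 3 of 9 dehydrogenases and 3 of 6 thioesterases.

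The annotation in the files was searched by text for compartment and process names. A mitochondrial Gene Ontology term was given to 25 of 37 members (67.6%), against 9.15% of all genes in the table, and a peroxisomal term to 10 (27.0%, against 0.938%). Beta-oxidation terms were carried by 12 members, among them 7 dehydrogenases. Their median ratio was 0.941, and that of the 25 members with a term naming mitochondria was 0.963. Such a term does not settle where an enzyme works. The 25 include Acaca and Acat2, described above as cytosolic, and leave out Acss3, described as mitochondrial. The KEGG pathway of fatty acid degradation held 14 members, with a median ratio of 0.955 and 4 that passed the test, near the 33.7% of all genes compared. The KEGG pathway of fatty acid elongation held 7, of which 6 were thioesterases, with a median ratio of 1.23 and 3 that passed, against the same 33.7%.

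Other genes of the pathway were read beside the members. Of 18 genes of beta-oxidation and its carnitine shuttle, 17 had at least 10 counts in replicate 2, with a median of 34.9 CPM. Hadha, a subunit of the trifunctional protein, had 129.5 CPM (1996 counts), Crat, the carnitine acetyltransferase gene, had 128.8 CPM, and Echs1, the short-chain hydratase gene, had 7 counts. All 17 ketone body and branched-chain genes reached 10 counts. Oxct1, the enzyme by which brain uses ketone bodies, had 226 CPM, and Auh had 104.6 CPM. Of 21 genes of fatty acid synthesis, binding and regulation, 20 reached 10 counts. They included Hmgcs1 of cholesterol synthesis with 355 CPM and the fatty acid synthase gene Fasn with 320.0 CPM, while Pparg had 5 counts.

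Of 16 peroxisomal genes 14 reached 10 counts, with Scp2 at 164 CPM, Abcd3 at 125 CPM, Acox2 at 6 counts and Acaa1b at 5 counts. Some of them lie in the part of replicate 3 that is present and could be compared. Acaa1a, the peroxisomal thiolase gene, had 499 counts in replicate 2 and 377 in replicate 3 (ratio 1.37, 1.19 to 1.57; adjusted p = 3.36e-05, exact binomial test).

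Of 17 other synthetases, transporters with synthetase activity and thioesterases with a row, 10 reached 10 counts. Slc27a1 had 118.4 CPM and Ppt1, the lysosomal palmitoyl thioesterase gene, had 94.96 CPM. Slc27a5 and Them5 had 9 counts each, Acot6 had 8, Acot12 had 4, and Acsbg2 had none, which again allows up to 0.195 CPM. Acsf2 and Acsf3, the members of this list that could be compared, had ratios of 1.12 (1.00 to 1.26) and 1.10 (0.926 to 1.31), and neither passed. Of the acyl-CoA binding genes on these lists, Acbd3 was higher in replicate 2 with 649 and 563 counts (ratio 1.19, 1.06 to 1.34; adjusted p = 0.00972, exact binomial test), while Acbd5 and Acbd6 did not pass. Acbd4, of the same family but on no list, had 1357 and 862 counts and a larger ratio of 1.63 (1.49 to 1.77; adjusted p = 5.91e-28, exact binomial test).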

How the data were processed

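TRIzol RNA went through mRNA capture beads into a Vazyme library kit and an MGI conversion kit, per the labels' protocols. HISAT2, Bowtie2, Trimmomatic, SAMtools, HTSeq, StringTie, Cufflinks and DESeq are named in the submitters' processing notes, with roles, versions, genome build and strand setting not given in the sources used here. Each deposited file holds whole-number counts of 1 sample by gene, without normalization as far as the values show. The files of replicates 1 and 3 break off inside their last gene row, after its count.

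Genes were matched by NCBI gene identifier to RefSeq symbols (GRCr8), for 17515 of 18560 genes. From the deposited counts, CPM of the total of replicate 2 was computed with exact Clopper-Pearson 95% intervals. Since PCR copies were not marked by molecular identifiers, intervals and the limit that 0 counts allow (3 counts) cover counting error only. Levels per coding length had been planned, but no lengths were at hand. Replicates 2 and 3 were scaled by TMM factors (edgeR 4.0.16) over genes that reached 10 counts in both. Ratios were tested by an exact binomial test (scipy 1.17.1). It was tried on simulated counts that held sampling noise only, with the true scaling given. That simulation does not cover spread between libraries or error in the scaling. The ratio of 2 count ratios has an exact conditional interval. Alternatives were DESeq2 1.42.0 size factors, totals of shared genes, scaling over genes that are not members, no filter, other count minimums and leaving out replicates.

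The members, lists and tests were chosen with earlier results of these data known. Named are all members and, of each pathway list, the 2 genes with the most counts (planned per coding length) and those under 10 counts. Compared genes of these lists, Aak1, Acat2l1, Acbd4, Ace, Abca4 and Adamtsl4 were named after their values were seen. The split of thioesterase promoters, the pairs and the sums were likewise chosen then. Of the genes on the pathway lists, the comparison of 1 is not reported here.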

Additional observations from a re-analysis of the deposited data

How the results depend on the processing

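All 37 members reached 10 counts and so also 1 count in replicate 2, and 33 reached 50 counts. The number of members that differed between replicates 2 and 3 was 13, and it was 12 or 13 under 5 other settings: DESeq2 size factors, the total of shared genes, scaling over genes that are not members, no filter, and scaling without Ace. The setting without Ace was added after the data had been seen. Every member called under these was also among the 13, and Acsl5 was the only one lost. Acsbg1, with a ratio of 0.9995 and no call, moved to 1.01 with DESeq2 size factors. No other member changed direction. The filter of 10 counts removed no member, so the class medians without it were the same by construction. Taken from replicate 3 instead of replicate 2, the median was 23.5 CPM against 18.4 CPM for dehydrogenases, 66.4 against 65.8 for synthetases, 11.6 against 14.8 for thioesterases and 36.6 against 29.8 for the other enzymes. The coefficient of variation of Aacs, 2.19% over 3 samples, was 0.448% to 2.86% with 1 replicate left out, lowest without replicate 2. Counting replicates 1 and 3 once gave 2.64%. The mean ranged from 734 to 749. Leaving out replicate 2 ends the CPM levels and the comparison of replicates 2 and 3, and leaving out replicate 3 ends that comparison too. Shares and count ratios within replicate 3 do not need replicate 2. Levels per coding length were not run. No paired analysis was possible because there is 1 group only. Depth limits the 7 members under 100 counts in a library, whose ratios had wider intervals than those of the other 30, as for Acot5 (0.491 to 3.21).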
